A study of Homo sapiens with 5 samples.

Results

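Semaphorins, plexins, neuropilins, ephrins and Eph receptors are families of cell-surface and secreted guidance molecules. The genes described here were chosen by name: every gene symbol of these 5 families that an array feature carried alone, with the brightest feature taken for each gene. This gave 49 of the 53 family genes in the RefSeq gene table, among 14232 genes measured in all. They comprised 19 semaphorins, 8 plexins, 2 neuropilins, 7 ephrins and 13 Eph receptors. EFNA4 and SEMA3E shared a feature with another gene and, like EPHB2 and PLXNB2, were not analysed here.

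Expression was measured on 5 Affymetrix exon arrays with RNA of human lung cancer cell lines. A549, an established lung adenocarcinoma line, has lost the function of the kinase LKB1 by mutation and has raised NEDD9, per the submitters. Its 3 arrays are 1 control and 1 for each of 2 short hairpins that lower NEDD9, taken as knockdown replicates (n = 2). CRL-5907 has wild-type LKB1 and little NEDD9, per the submitters, and its 2 arrays are 1 control and 1 of cells that overexpress NEDD9. The labels do not say what construct the control cells carried, which promoter drove NEDD9, or whether the modified cells were clones or pools. The design asks which genes move when NEDD9, a Cas-family scaffold found at focal adhesions, is lowered in the first line or raised in the second.

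Semaphorins are ligands whose main receptors are plexins. Secreted class 3 semaphorins bind neuropilins, co-receptors that also take up VEGF, and the signal passes through a plexin, whose cytoplasmic part inactivates small GTPases of the Ras and Rap type and so loosens integrin adhesion. The other semaphorins measured here are mostly held in the membrane and bind plexins directly. Eph receptors are receptor tyrosine kinases for ephrins on neighbouring cells. A-type ephrins are anchored by a lipid and B-type ephrins span the membrane, and both partners of a contact can signal. In epithelial tumours these systems are known for effects on cell sorting, adhesion and migration.

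Each value below is a log2 expression level from 1 array, normalised by the authors, and the number of arrays, not read depth, limits the precision. A level of a gene is compared only with the same gene on other arrays, since probes of different genes differ in brightness. NEDD9 followed the labels, at 8.94 on the A549 control, 8.35 and 8.52 with the hairpins, 4.66 on the CRL-5907 control and 9.49 with overexpression. The knockdown differences of -0.59 and -0.41 meant that NEDD9 itself passed 1.5-fold with hairpin 1 only and was not called by limma (adjusted p = 0.312). Of 8 epithelial markers 5 lay above the array median in A549 and 7 in CRL-5907 (ELF3 in neither line, CLDN4 and CLDN7 not in A549). Of 5 lung markers measured, FOXA2 was the only one above it in either line, with SFTPB, SFTPC, SFTPD and SCGB1A1 below. Of 7 leukocyte markers measured, 3 lay above it in both lines (CD68, CD14 and NKG7, at 9.53, 6.47 and 6.08 on the A549 control and 8.88, 6.91 and 6.21 on the CRL-5907 control), and their part in the results was not tested. PTPRC, CD3E, LYZ and CD79A, 7 of 8 endothelial markers and all fibroblast markers but COL1A1 lay below it in both lines. To give single-array differences a scale, the difference between the hairpin arrays was taken over all genes of similar level. Its SD was 0.174 near the median level and 0.131 for the brightest genes, and it includes true differences between the hairpins.

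Of the 49 members, 26 exceeded the median of the named features on their brightest array. These were 23 in A549 and 23 in CRL-5907, with 20 in both lines. EFNB1, SEMA3A and SEMA6B passed in A549 only, and EPHB3, SEMA5A and SEMA6A in CRL-5907 only. The other 23 ranged from 2.12 to 5.66 and were not shown to exceed background. They included the ephrins EFNA2, EFNB2 and EFNB3, the receptors EPHA1, EPHA3, EPHA4, EPHA5, EPHA6, EPHA7, EPHA10, EPHB1 and EPHB6, and the plexins PLXNA4, PLXNB3 and PLXNC1. The semaphorins among them were SEMA3D, SEMA3F, SEMA4A, SEMA4D, SEMA5B, SEMA6C, SEMA6D and SEMA7A. None of these 23 differed between the controls by more than 0.86 or from its control by more than 0.54. Of the 26 members that passed, 5 had exactly equal values on some arrays, which the normalisation can produce. SEMA4C, a plexin-B ligand, was 6.58 on all 5 arrays, and its differences of 0.00 therefore do not show that it was unchanged.

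**Figure D1:**
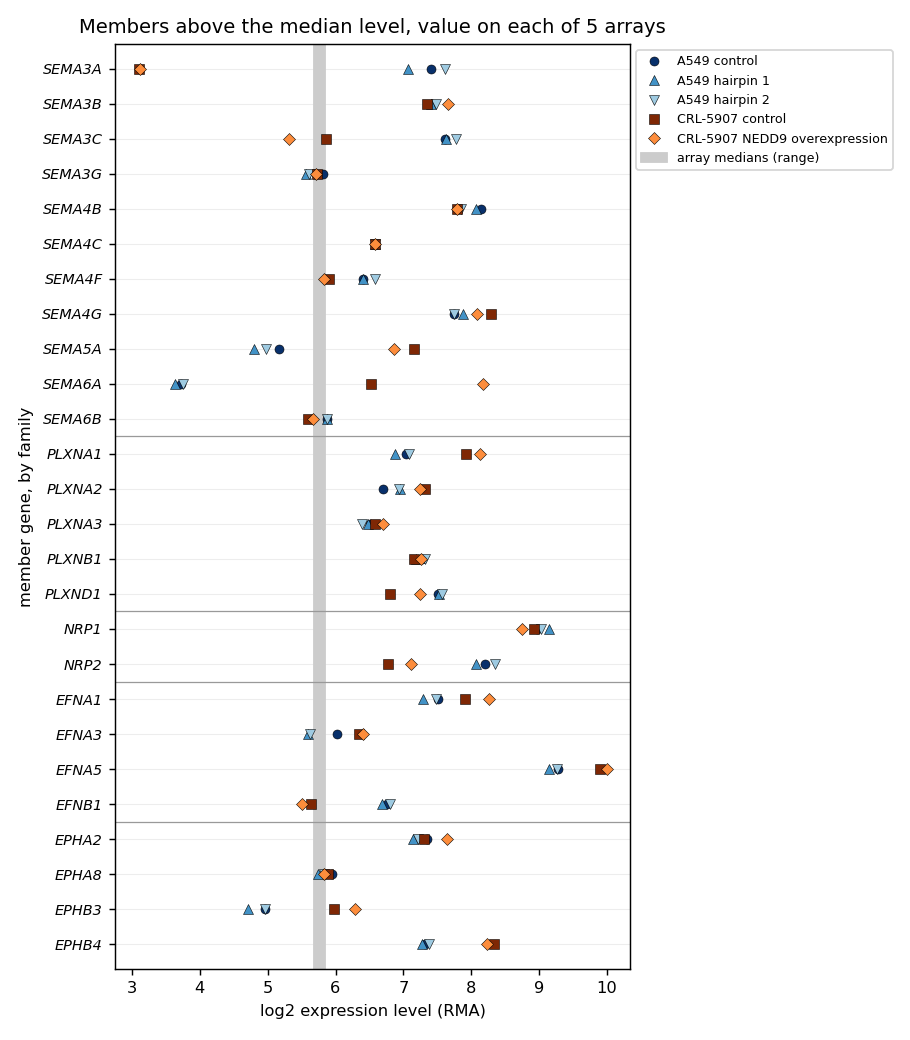
Log2 expression level (x axis) of the 26 members above the median level on each of the 5 arrays, grouped by family; each symbol is 1 array and the grey band is the range of the array medians. The arrays of the lines stand furthest apart for SEMA3A and SEMA6A, and the CRL-5907 arrays stand apart from each other for SEMA6A (6.52 and 8.17).

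NEDD9 knockdown in A549 moved no member by 1.5-fold (0.585 on the log2 scale) with both hairpins. This was 0 of 23 members in each direction, where 0.708% of 7485 genes past the level filter were higher and 0.134% lower. Neither hairpin alone moved a member that far (background 2.57% higher and 0.534% lower with hairpin 1, 1.35% and 0.481% with hairpin 2). limma, with the hairpins as replicates, called 0 members and 0% of all genes at an adjusted p under 0.05 (Benjamini-Hochberg, 1 residual degree of freedom). At an unadjusted p under 0.05 it gave 3 of 23 members, or 13%, against 17.5% of all genes. A miss does not show that a gene was unchanged. The hairpins share 1 control array, whose error is missing from the spread between them.

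The 3 members were EFNA3, PLXNA2 and SEMA3G. EFNA3 and SEMA3G passed the level filter in A549 only through the control array, a selection that favours hairpin values below control. EFNA3, a lipid-anchored ligand of EphA receptors, had levels of 6.02 in the control and 5.59 and 5.62 under hairpins 1 and 2. Its mean difference of -0.41 ± 0.02 (SD, n = 2; limma adjusted p = 0.276) was the furthest below control of any member above the median level, and both hairpin values lay below the control and below their arrays' medians. A feature shared by EFNA4 and EFNA3, not used for either gene, was 6.43 on the control and 6.32 and 6.48 with the hairpins. PLXNA2, a receptor of class 3 and class 6 semaphorins, was 6.70 on the control and 6.95 and 6.93 with the hairpins. The difference was 0.24 ± 0.01 (SD, n = 2; limma adjusted p = 0.276), with both hairpin arrays above the control. SEMA3G, a secreted semaphorin that signals through neuropilin-2, was 5.81, 5.57 and 5.62, a difference of -0.22 ± 0.03 (SD, n = 2; limma adjusted p = 0.284), and its hairpin values lay below the array medians.

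A second, dimmer feature of PLXNA2 gave a larger difference. It read 4.06 for the A549 control and 5.57 and 5.68 under hairpins 1 and 2, or 1.51 and 1.62 above control. All these values lay below their arrays' medians, so the feature was not shown to exceed background on any A549 array. In CRL-5907 it was 4.98 on the control and 5.35 with overexpression. With the mean of both features in place of the brighter one, PLXNA2 was 0.88 and 0.93 above control and became the only member past 1.5-fold with both hairpins. Both features lay above control with each hairpin, by unequal amounts. EPHA10 and EPHA6, the other members with 2 features, stayed under 1.5-fold on each feature.

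**Figure D2:**
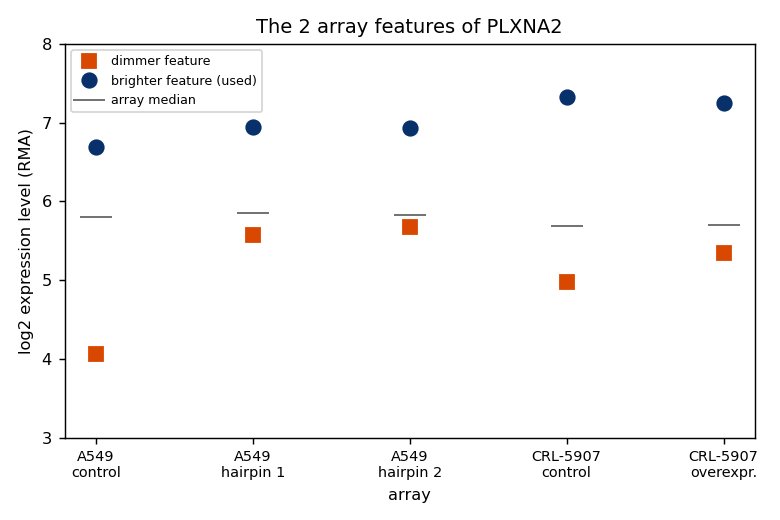
Log2 expression level (y axis) of both array features of PLXNA2 on the 5 arrays (x axis); grey dashes mark each array's median over named features. The dimmer feature lies 1.51 and 1.62 higher with the hairpins than on the A549 control and below the array median throughout, while the brighter one lies 0.25 and 0.23 higher.

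By family, median differences with hairpin 1 and hairpin 2 were 0.00 and 0.00 over 9 semaphorins, -0.03 and 0.05 over 5 plexins, -0.18 and -0.02 over 4 ephrins, -0.20 and -0.12 over 3 Eph receptors and 0.02 and 0.11 over the 2 neuropilins. Over all 7485 genes the medians were 0.10 and 0.04. SEMA4C and SEMA6B, whose A549 values were exactly equal, are among the semaphorins and do not show that the family was unchanged. EPHA2, the receptor for which EFNA1 is the usual ligand, was 7.35 on the control and 7.15 and 7.21 with the hairpins. EFNA1 itself was 7.50, 7.28 and 7.48. SEMA3A, a secreted repulsive ligand that needs a neuropilin, lay on either side of its control of 7.40, at 7.07 with hairpin 1 and 7.61 with hairpin 2 (mean difference -0.06 ± 0.38, SD, n = 2). No direction can be read from that value. Its co-receptor NRP1 was 8.97, 9.15 and 9.03, and NRP2 was 8.20, 8.07 and 8.36. Of the 23 members, 5 (21.7%) were above control with both hairpins by any amount and 8 (34.8%) below, against 53.7% and 21.5% of all genes. Among these 8, EFNA3, SEMA3G and EPHA8 passed the level filter in A549 only through the control array, which favours hairpin values below control. EPHA8 is also among the 3 Eph receptors. The same filter was applied to all genes, and whether its effect was equal for members and for all genes was not tested. The split depended on the scaling: after a further quantile normalization of the arrays 1 member was above and 16 below, against 36.6% and 42.5% of all genes.

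**Figure D3:**
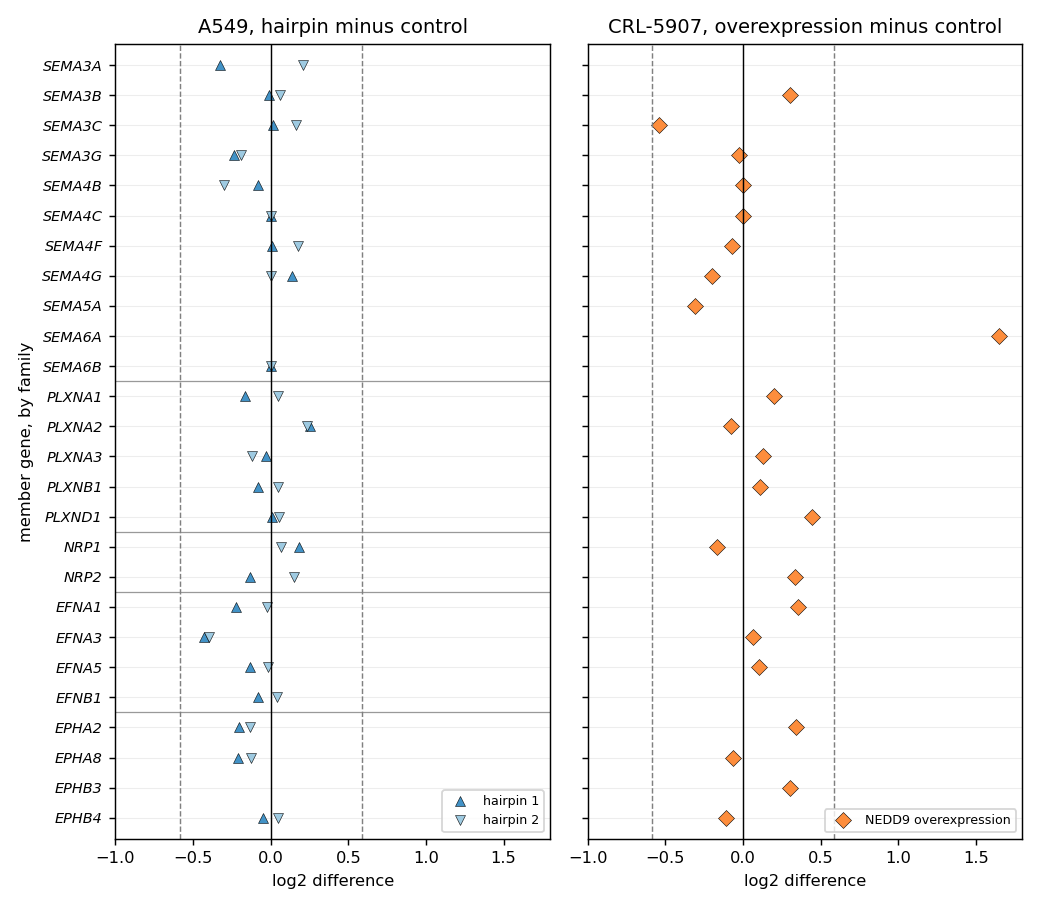
Log2 difference from the line's control array (x axis) for each hairpin in A549 (left) and for NEDD9 overexpression in CRL-5907 (right); each symbol is 1 array, members below the median level in a line have no symbol there, and dashed lines mark 1.5-fold. No hairpin symbol passes 1.5-fold, and SEMA6A at 1.65 is the only overexpression symbol that does.

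With NEDD9 overexpression in CRL-5907, SEMA6A was the member furthest above its control. SEMA6A, a membrane-spanning semaphorin whose receptors are PLXNA2 and PLXNA4, was 6.52 on the control and 8.17 with overexpression, a difference of 1.65 or 3.13-fold. It ranked 8 among the 7410 genes above the median level, NEDD9 included. The SD of the difference between the hairpin arrays was 0.15 among genes of this level. It was the only one of 23 members at least 1.5-fold higher (4.35%, against 3.5% of all genes), and 0 members were 1.5-fold lower (0.85% of all genes). With 1 array per condition the difference was not tested. In A549 SEMA6A lay far below the array medians, at 3.73 on the control and 3.64 and 3.75 with the hairpins, so a response to knockdown could not be read there.

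SEMA3C, a secreted semaphorin that acts through neuropilins and PLXND1, was 5.86 on the CRL-5907 control and 5.32 with overexpression. The difference of -0.54 just missed 1.5-fold, passed it after a further quantile normalization (-0.59), and ended below the array median. SEMA3C passed the level filter in CRL-5907 only through the control array, a selection that favours an overexpression value below control. Its plexin PLXND1 went from 6.80 to 7.24 (0.44) and NRP2 from 6.78 to 7.11 (0.33). EFNA1 went from 7.90 to 8.26 (0.35) and EPHA2 from 7.31 to 7.65 (0.34). SEMA3B, a secreted semaphorin known as a growth suppressor in lung cancer, went from 7.35 to 7.65 (0.30), and EPHB3 from 5.98 to 6.28 (0.30). SEMA5A, a membrane-bound semaphorin with thrombospondin repeats, went from 7.16 to 6.85 (-0.31). Of the receptors of SEMA6A, PLXNA2 was 7.32 and 7.24, and PLXNA4 stayed below the median level at 4.71 and 4.46. The median difference over the 23 members was 0.06, against 0.05 over all genes.

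**Figure D4:**
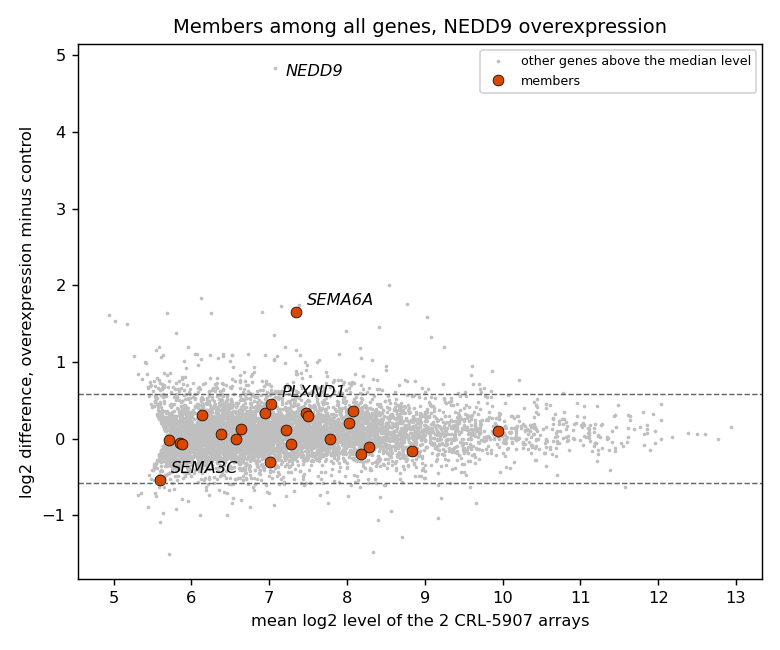
Log2 difference of the NEDD9 overexpression array from the CRL-5907 control (y axis) against the mean log2 level of both arrays (x axis); grey points are the other genes above the median level, orange points the 23 members, and dashed lines mark 1.5-fold. SEMA6A at 1.65 stands apart from the other members, which lie between -0.54 and 0.44.

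Some members lay on opposite sides of control when NEDD9 was lowered and when it was raised, all by less than 1.5-fold. Of the 20 members above the median level in both lines, EFNA1, EFNA3, EFNA5, EPHA2 and PLXNA3 were lower with both hairpins and higher with overexpression. This was 25%, against 10.1% of 6856 genes. EPHA2 had the clearest values, at -0.20 and -0.13 with the hairpins and 0.34 with overexpression, while EFNA1 was at -0.22 and -0.02 and then 0.35. NRP1, PLXNA2, SEMA3C and SEMA4F had the reverse pattern (20%, against 16.5% of all genes). EFNA3 passed the level filter in A549 only through the control array, which favours hairpin values below control. SEMA3C passed it in CRL-5907 only through the control array, which favours an overexpression value below control. After a further quantile normalization the first pattern held 8 members (16.4% of all genes) and the second 1 (16.3%). The SD of the difference between the hairpin arrays was 0.13 to 0.17 at such levels, and no test of the patterns was made. Several signs rest on differences well inside it. EFNA5 was at -0.02 with hairpin 2, PLXNA3 at -0.03 with hairpin 1 and EFNA3 at 0.06 with overexpression. The EPHA2 value of -0.13 with hairpin 2 also lay inside the SD of 0.16 at its level. In the reverse pattern, SEMA4F and SEMA3C were each at 0.01 with hairpin 1.

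The larger differences lay between the lines. On the control arrays 4 members were at least 2-fold higher in A549 and 4 at least 2-fold higher in CRL-5907, each 15.4% of the 26 members above the median level, against 9.88% and 5% of 7716 genes. The A549 side held SEMA3A, SEMA3C, NRP2 and EFNB1, and the CRL-5907 side held SEMA6A, SEMA5A, EPHB3 and EPHB4. SEMA3A, EFNB1, SEMA6A, SEMA5A and EPHB3 passed the level filter only through the line where they were higher. Counted over every array, 9 members (34.6%) had all A549 values above both CRL-5907 values and 11 (42.3%) had them all below, against 41% and 26.9% of 7987 genes. To set these differences against a spread, limma was fitted with the line as the factor over all 5 arrays (3 of A549, 2 of CRL-5907). Where 1 line lay below its array medians, a difference is read here as a lower bound in size, written as at least for a fold. The median is not a detection limit, and the part of background in such values was not tested. Such a bound also depends on the scaling and leaves out the error of single arrays. The interval of such a difference covers only the spread of the deposited values. The NEDD9 manipulations lie within the fitted spread, so arrays of a line are not replicates of 1 condition, and the labels do not say whether they came from separate cultures. limma called 7 members higher in A549 (26.9%) and 10 higher in CRL-5907 (38.5%) at an adjusted p under 0.05, against 31.8% and 17.7% of 7987 genes. These include EFNB1, SEMA3A, SEMA6B, EPHB3, SEMA5A and SEMA6A, which passed the level filter only through their higher line. Such selection favours a difference among members and among all genes, and whether it does so equally was not tested. Of all genes called, 64.2% were higher in A549, but only 50.9% when the arrays were quantile-normalised again. In that setting 2169 genes were called higher in A549 and 2095 in CRL-5907, with 6 and 12 members among them.

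Among secreted semaphorins, SEMA3A showed the widest gap. It was 7.40, 7.07 and 7.61 on the A549 arrays and 3.10 and 3.12 on the CRL-5907 arrays. The controls differed 19.7-fold, read as a lower bound because the CRL-5907 values lay below the array medians, and SEMA3A ranked 27 among the 7716 genes toward A549. The line difference, likewise a lower bound, was 4.25 (95% interval 3.82 to 4.68; limma adjusted p = 7.24e-05), with all 3 A549 arrays above both CRL-5907 arrays. SEMA3C was 7.61, 7.62 and 7.78 in A549 and 5.86 and 5.32 in CRL-5907, 3.36-fold between the controls. Its line difference was 2.08 (1.66 to 2.50; limma adjusted p = 0.000495), and the lines did not overlap. SEMA3B and SEMA3G overlapped between the lines (limma adjusted p = 0.634 and 0.721).

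The membrane-bound semaphorins with the widest gaps lay the other way. SEMA6A was 3.73, 3.64 and 3.75 in A549 and 6.52 and 8.17 in CRL-5907, at least 6.95-fold between the controls. Its line difference, a lower bound in size, was -3.64 (-4.81 to -2.47; limma adjusted p = 0.00225). The interval was the widest of all members because the CRL-5907 arrays differed by 1.65. SEMA5A was 5.16, 4.80 and 4.98 in A549 and 7.16 and 6.85 in CRL-5907. Its line difference, also a lower bound in size, was -2.03 (-2.41 to -1.65; limma adjusted p = 0.000396). For both genes every A549 value lay below its array median and below both CRL-5907 values. SEMA4F was 6.40, 6.41 and 6.58 in A549 and 5.91 and 5.84 in CRL-5907 (0.59, 0.37 to 0.81; limma adjusted p = 0.00378). SEMA4G, the brightest semaphorin feature, was 7.75, 7.88 and 7.75 in A549 and 8.28 and 8.08 in CRL-5907, with no overlap. SEMA4B was higher on every A549 array, but its difference of 0.24 did not pass (limma adjusted p = 0.124; interval -0.03 to 0.51).

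Of the co-receptors, NRP2 differed between the lines. It was 8.20, 8.07 and 8.36 in A549 and 6.78 and 7.11 in CRL-5907, 2.69-fold between the controls (line difference 1.27, 0.92 to 1.61; limma adjusted p = 0.00129). NRP1, the co-receptor that binds SEMA3A, was 8.97, 9.15 and 9.03 against 8.92 and 8.75 (0.21, -0.02 to 0.45; limma adjusted p = 0.118). PLXNA1, the plexin that pairs with neuropilins for class 3 semaphorins, was 7.03, 6.87 and 7.08 in A549 and 7.93 and 8.13 in CRL-5907 (-1.03, -1.29 to -0.77; limma adjusted p = 0.000988). PLXNA3 (limma adjusted p = 0.121) and PLXNB1, the receptor of SEMA4D (limma adjusted p = 0.626), did not pass.

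In the Eph system the lines differed in opposite directions for the B-type ligand EFNB1 and for the B-type receptors EPHB3 and EPHB4. The other B-type members measured, EFNB2, EFNB3, EPHB1 and EPHB6, lay below the median level in both lines. Their differences between the controls were 0.05, 0.05, 0.00 and -0.004. EFNB1 was 6.76, 6.68 and 6.80 in A549 and 5.65 and 5.50 in CRL-5907, where it lay below the array medians. The controls differed by at least 2.17-fold, and the line difference, a lower bound, was 1.18 (0.97 to 1.38; limma adjusted p = 0.000339). EPHB3, a receptor of EFNB1 that sorts cells in intestinal crypts, was 4.96, 4.71 and 4.96 in A549 and 5.98 and 6.28 in CRL-5907, its A549 values below the array medians (a lower bound in size; -1.26, -1.63 to -0.88; limma adjusted p = 0.00178). EPHB4, the main receptor of EFNB2 in blood vessels, was 7.33, 7.28 and 7.37 in A549 and 8.34 and 8.23 in CRL-5907 (-0.96, -1.15 to -0.76; limma adjusted p = 0.000481). The lines did not overlap for any of these genes. Between the controls EPHB3 was at least 2.02-fold and EPHB4 2.01-fold higher in CRL-5907, EPHB4 close to the limit of 2-fold. EFNA5, an A-type ligand, was 9.28, 9.15 and 9.26 in A549 and 9.89 and 10.00 in CRL-5907 (-0.71, -0.91 to -0.51; limma adjusted p = 0.00141). The A-type receptors EPHA2 (-0.24, -0.56 to 0.08; limma adjusted p = 0.174) and EPHA8 (-0.02, -0.26 to 0.22; limma adjusted p = 0.884) overlapped between the lines.

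The start regions of the co-receptor NRP2 and of the ephrin-B ligand and receptors are shown because these members differed between the lines in both directions. The sequences, 250 bases before to 50 after the gene start, come from RefSeq (GRCh38.p14), read along the gene. Capitals mark GGGCGG, the GC box bound by Sp1, or its reverse CCGCCC, and TGACG, the core of the site bound by CREB.
NRP2, chr2:205682251-205682550, plus strand: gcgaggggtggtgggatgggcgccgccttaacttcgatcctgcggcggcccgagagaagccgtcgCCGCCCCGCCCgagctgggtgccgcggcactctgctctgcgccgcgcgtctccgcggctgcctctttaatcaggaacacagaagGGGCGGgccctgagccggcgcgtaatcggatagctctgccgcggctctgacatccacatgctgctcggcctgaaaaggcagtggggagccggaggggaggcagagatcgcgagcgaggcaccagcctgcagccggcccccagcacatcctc
EFNB1, chrX:68828771-68829070, plus strand: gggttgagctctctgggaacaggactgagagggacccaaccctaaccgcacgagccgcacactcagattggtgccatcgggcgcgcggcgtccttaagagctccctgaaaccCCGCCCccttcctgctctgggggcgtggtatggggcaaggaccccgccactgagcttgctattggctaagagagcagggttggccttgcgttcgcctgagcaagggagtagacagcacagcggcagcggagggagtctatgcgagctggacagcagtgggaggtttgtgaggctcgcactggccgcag
EPHB3, chr3:184561535-184561834, plus strand: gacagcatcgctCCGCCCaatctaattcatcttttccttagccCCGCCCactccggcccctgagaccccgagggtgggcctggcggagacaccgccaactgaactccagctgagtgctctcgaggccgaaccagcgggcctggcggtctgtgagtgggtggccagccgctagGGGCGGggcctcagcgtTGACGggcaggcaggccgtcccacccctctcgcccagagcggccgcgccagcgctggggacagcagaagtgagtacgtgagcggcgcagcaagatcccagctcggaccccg
EPHB4, chr7:100827474-100827773, minus strand: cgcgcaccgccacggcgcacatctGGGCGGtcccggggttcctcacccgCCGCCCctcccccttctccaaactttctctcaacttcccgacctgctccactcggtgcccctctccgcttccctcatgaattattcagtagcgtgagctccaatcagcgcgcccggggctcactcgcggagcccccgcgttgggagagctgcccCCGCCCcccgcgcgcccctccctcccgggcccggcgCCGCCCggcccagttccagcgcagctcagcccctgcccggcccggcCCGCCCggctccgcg
Each of the 4 regions holds at least 1 GC box, as do 51 of 68 regions of members and 45% of 35116 RefSeq regions of this length. A GC box is thus not particular to these 4 members. TGACG on either strand occurred in EPHB3 alone of the 4, against 24.6% of all regions. The full CREB site TGACGTCA, which contains TGACG, occurred in none of them (1.85% of all regions). Neither did the AP-1 site TGACTCA (4.95%) or the E-box CAGGTG (20.6%), each searched on both strands. Over the 68 regions of members, TGACGTCA occurred in 3, those of EPHA2, SEMA3B and SEMA4C. These matches describe letters only, and which start the cells use was not measured. Of the 49 members 43 had an entry.

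**Figure D5:**
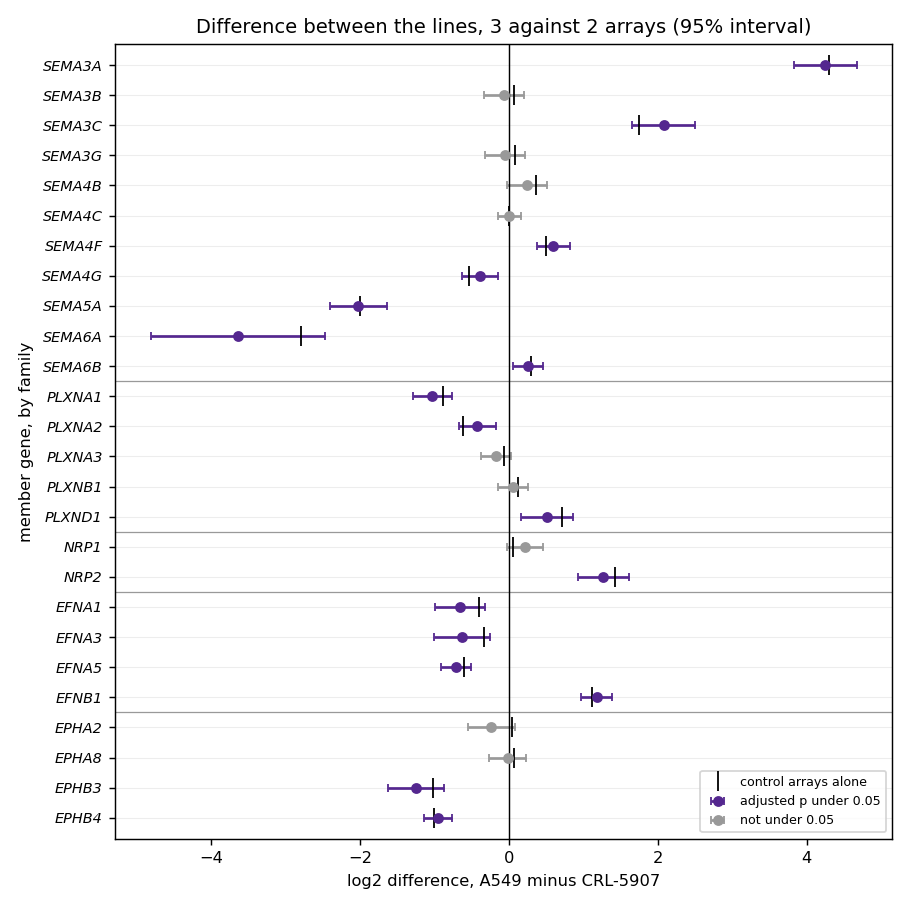
Log2 difference between A549 (3 arrays) and CRL-5907 (2 arrays) for the 26 members above the median level (x axis), with the 95% interval from limma; purple points passed an adjusted p of 0.05 and black ticks give the difference of the control arrays alone. SEMA3A lies at 4.25 and SEMA6A at -3.64, with NRP2, SEMA3C and EFNB1 on the A549 side and SEMA5A, EPHB3, EPHB4 and PLXNA1 on the CRL-5907 side.

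Of the 17 members called between the lines, 11 stayed past the threshold under every alternative that kept them in the test, and all 17 had the same sign between the controls alone. The other 6 lost the call under some alternatives. EFNA1 (-0.66; limma adjusted p = 0.0111) was lost without the overexpression array (adjusted p = 0.0636). EFNA3 was 6.35 and 6.41 in CRL-5907, and its call (-0.64; limma adjusted p = 0.0178) was lost without hairpin 1 (0.0571), hairpin 2 (0.0628), the CRL-5907 control (0.113) or the overexpression array (0.134), and with no level filter (0.0504). PLXNA2 (-0.43; limma adjusted p = 0.0184) was lost without the CRL-5907 control (0.119) or the overexpression array (0.0853), and with the mean of its features (0.533). PLXND1 was 7.51, 7.52 and 7.57 in A549 and 6.80 and 7.24 in CRL-5907. Its call (0.51; limma adjusted p = 0.0283) was lost without any 1 of the A549 arrays (0.0716 to 0.0906) and with no level filter (0.0731). SEMA4G (-0.39; limma adjusted p = 0.0207) was lost without the A549 control (0.0576), hairpin 2 (0.0833) or the CRL-5907 control (0.0818). SEMA6B, whose 3 A549 values were exactly equal at 5.88, was 5.59 and 5.66 in CRL-5907, below the array medians. Its call (0.25; limma adjusted p = 0.0457) was lost without any 1 of the A549 arrays (0.0695 to 0.146), with centred arrays (0.201) and after a further quantile normalization (0.218).

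Genes that act beside these families were taken from a list of 72, of which 61 were measured and 36 lay above the median level on some array. With NEDD9 manipulation 0 of them passed 1.5-fold with both hairpins (34 genes) or with overexpression (30 genes). RND1, a small GTPase that binds plexins, had levels of 8.10 in the A549 control and 7.41 and 7.84 under hairpins 1 and 2, past 1.5-fold with hairpin 1 only (1 of 34, or 2.94%, against 0.534% of all genes). NCK2, an adaptor that links ephrin-B tails to actin, came nearest with overexpression, from 6.81 to 7.35. Between the controls 10 of 36 (27.8%) were at least 2-fold higher in A549 and 1 (2.78%) in CRL-5907, against 9.88% and 5% of all genes.

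Among plexin partners, NRCAM, a cell-adhesion molecule of the L1 family that joins neuropilin complexes, was 8.76, 8.76 and 9.09 in A549 and 2.87 and 2.68 in CRL-5907. It was at least 59.1-fold higher on the A549 control and the furthest apart of the list (limma adjusted p = 2.33e-05). RND1 was at least 11.3-fold higher (CRL-5907 values 4.60 and 4.96; limma adjusted p = 0.000395). MICAL2, an actin-oxidising enzyme of the family that acts below plexins, was at least 3.22-fold higher. DPYSL2, a collapsin response mediator that carries semaphorin signals to microtubules, was 3.16-fold higher. Among Eph partners, PIK3R1, a regulatory subunit of PI3 kinase, was at least 4.87-fold higher in A549, the phosphatase PTPN13 at least 3.07-fold, NCK2 2.47-fold and the kinase SRC 2.18-fold. VAV2, a signalling protein that Eph receptors recruit, was 2.09-fold higher in CRL-5907. Of the other guidance families, NTN4, a netrin, was at least 3.39-fold higher in A549, and ROBO1, a receptor for Slit ligands, was 3.30-fold higher. limma called 17 of the 36 higher in A549 (47.2%, against 31.8% of all genes) and 6 higher in CRL-5907 (16.7%, against 17.7%, near the background). The adaptors BCAR3 and SH2D3A, which link receptors to Cas-family proteins, went opposite ways. BCAR3 was higher in A549 (6.27 against 5.88 on the controls, limma adjusted p = 0.00546). SH2D3A was higher in CRL-5907 (6.15 against 6.77, limma adjusted p = 0.00184). SH2D3C, from the same part of the list, was 5.56 against 5.82 and was not called (limma adjusted p = 0.246).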

How the data were processed

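Per the labels' protocols, RNA was isolated with Trizol, ribosomal RNA was removed, and sense-strand cDNA was amplified and labelled with biotin; each of the 5 samples went on 1 exon array. The authors deposited log2 expression values for 22011 features (transcript clusters) on 5 arrays, for which the submitters' processing notes name RMA (in Affymetrix Power Tools, no version). RMA includes background correction, joint quantile normalization and a summary over the probes of a feature, and it can give several arrays exactly equal values. The values (0.58 to 13.09) fit base 2. The genome build and the detection of single features are not given in the sources used here, so no gene coordinates are given apart from those of the RefSeq start regions.

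Samples were grouped by title; a description field, that of hairpin 2, has NEDD10 in place of NEDD9. The 14432 features with 1 symbol in the platform annotation gave 14232 genes, the brightest feature by mean level being kept. The level filter kept a gene if its highest value in a comparison exceeded the median of the named features on the same array. Differences between single arrays were counted at 1.5-fold (manipulations) or 2-fold (controls) without a test. Knockdown, and the lines over all arrays, were fitted with limma 3.58.1 in R 4.3.3 (trend, Benjamini-Hochberg at 0.05 over all genes past the filter, 1 and 3 residual degrees of freedom). P-values measure the spread between these arrays, which may be technical. The steps were tested on simulated data. Members and lists were chosen with earlier results of these data known. Named with their values on every array were members past a fold or a limma call and the brightest of each family; of the partner list, up to 4 genes of each of its 4 parts past a fold. RND1, NCK2, BCAR3, SH2D3A and SH2D3C were named after their values were seen. Alternatives were centred arrays, a further quantile normalization, the mean of features, no level filter or one at the 75th percentile, other folds, limma without a trend or with all 5 arrays, and leaving out each array.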

Additional observations from a re-analysis of the deposited data

Results flagged for a closer look

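The dimmer feature of PLXNA2, which the comparisons did not use, lay 1.51 above the A549 control with hairpin 1 and 1.62 above it with hairpin 2. It was picked out because a feature outside the main measurement passed 1.5-fold with both hairpins. Among the 14432 features with 1 symbol, 119 did so at any level and 5 had a larger smaller-of-both difference. Its A549 values of 4.06, 5.57 and 5.68 all lay below the array medians of 5.80, 5.85 and 5.83, and the part of background in the difference was not tested.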

How the results depend on the processing

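Of the counts of members, 0 higher with knockdown became 1 (PLXNA2) with the mean of features, and 0 lower with overexpression became 1 (SEMA3C) after a further quantile normalization. The 4 members 2-fold higher on the CRL-5907 control became 2 with the level filter at the 75th percentile, which removed dimmer genes, and 7 at 1.5-fold. With that filter the 7 members called higher in A549 over all arrays became 4. For the partner list it gave 6 in place of 10 between the controls and 11 in place of 17 over all arrays, both higher in A549. VAV2, the only partner 2-fold higher on the CRL-5907 control, was joined by VEGFA with centred arrays and after a further quantile normalization (2 genes each). Members above control with both hairpins by any amount went from 5 to 2 with centred arrays and 1 after a further quantile normalization, and those below from 8 to 11 and 16. Those counts, of 23 members, were 6 and 26 of 49 with no level filter and 3 and 4 of 13 with the filter at the 75th percentile. The shares of all genes above and below were 43.1% and 35.7% with centred arrays and 36.6% and 42.5% after a further quantile normalization. They were 39.6% and 27.7% with no level filter and 59.6% and 17.2% with the filter at the 75th percentile. Members lower with knockdown and higher with overexpression went from 5 to 5 with centred arrays and 8 after a further quantile normalization. The reverse pattern went from 4 to 2 and 1. Of all genes, 15.9% held each pattern with centred arrays, and 16.4% and 16.3% after a further quantile normalization. Every other count past a fold or a limma call stayed within 1.5 times its value. Leaving out either hairpin gave 0 members in each direction, and leaving out each array in turn gave 5 to 7 members higher in A549 and 7 to 9 higher in CRL-5907. The SEMA6A difference with overexpression was 1.56 to 1.65 under other scalings. Of all genes counted with knockdown 84.1% were higher, and 69% after a further quantile normalization; with overexpression the shares were 80.4% and 62.9%. No paired analysis was possible because the hairpin numbers have no counterpart in the other groups. No array signal over background was given per feature, which limits what can be said of the 23 members below the median level.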
